A study of Mus musculus with 8 samples.

Results

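The extracellular matrix genes of the mouse were followed in RNA of 2 bone marrow cell fractions. Members were chosen by gene symbol: the collagen, laminin α, β and γ, Adamts, Mmp, Timp, thrombospondin, nidogen and fibulin families, and Fn1, Tinagl1, Hspg2 and Sparc. The choice gave 116 of 21991 gene IDs that have annotated exons. It includes Col4a3bp, which matches by the start of its symbol but encodes a ceramide transfer protein, so 115 members are matrix genes. Tinagl1 was found after the number that the files add to the names of genes on several rows had been removed. The HSC fraction held cells positive for CD150, Sca1 and c-Kit, and negative for CD34 and lineage markers, and the HPC fraction differed from it by carrying CD34. Each had 4 bulk RNA-seq libraries from C57BL/6 mice of 8 to 10 weeks, and no treatment or genetic change is named for either. The protocol states 5000 sorted cells but speaks of HSCs only.

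The extracellular matrix is the protein network outside cells. Network collagens and laminins build basement membranes, which nidogens and perlecan tie together, while fibrillar collagens form cables and other collagens decorate or anchor them. Fibronectin, thrombospondins and fibulins bind cells and growth factors to the network. Mmp and Adamts proteases cut matrix proteins, and Timp proteins inhibit these proteases. In marrow, matrix is laid down mainly by stromal and endothelial cells and lies in the niche to which blood stem cells attach.

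Exon reads numbered 16291733 to 19070313 per HSC library and 18223082 to 20564901 per HPC library. Matrix members received 489.2 to 665.6 CPM (read counts scaled to library size) in HSC libraries, against 282.4 to 363.7 CPM in HPC libraries. At least 1 read was found for 68 to 76 members in HSC libraries and for 52 to 60 in HPC libraries. A library with 0 reads of a gene allows a level of up to 0.149 to 0.179 TMM-normalised CPM, the scale of all levels that follow, a limit of 3 reads that covers counting error only because PCR copies were counted as reads. Cd34 RNA followed the labels, at 120.2 ± 15.4 CPM in HSC libraries and 1276 ± 55.9 CPM in HPC (SD, n = 4 each). Slamf1 encodes CD150, a surface marker that the labels give to both fractions, and its RNA averaged 37.6 ± 6.02 CPM in HSC libraries and 3.14 ± 0.74 CPM in HPC libraries (log2 change 3.58, adjusted p = 6.6e-09). Ly6a, which encodes Sca1, averaged 131.4 ± 16 CPM in HSC libraries and 72.1 ± 8.02 CPM in HPC libraries (log2 change 0.87, adjusted p = 3e-05), and Kit had no call (log2 change 0.31, adjusted p = 0.080). The labels do not tell whether the libraries of a fraction stem from different animals, so a p-value here refers to the spread among these samples, and that spread may be technical only.

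Which matrix genes differ between the CD34-negative and the CD34-positive fraction was asked with edgeR's quasi-likelihood test, with Benjamini-Hochberg adjustment over 12751 genes and a threshold of 0.05. In HSC, Tinagl1, the membrane-type proteases Mmp14, Mmp16 and Mmp17, the inhibitors Timp2 and Timp3, and the collagens Col4a1, Col4a2, Col5a1, Col16a1 and Col18a1 were among the genes that were higher. Mmp2, Mmp11, Adamts10, Col11a2, Col19a1, Fbln1 and Thbs2 were lower in HSC. Of 116 members, 39 passed the count filter, and 18 of them were higher in HSC, 7 were lower and 14 had no call. Over all genes tested, 19.6% were called higher and 17.6% lower, 37.1% in all. The 4 HSC libraries all lay above the 4 HPC libraries for 18 tested members and all below for 5, beside 19.5% and 17.2% of all genes tested. The median log2 change was 1.16 over the 39 members and 0.00 over all genes tested.

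The filter (about 0.527 CPM in 4 libraries) shaped these counts, since a member that is low in one fraction passes only if it is high enough in the other. Of the 39 members, 22 passed it in both fractions, 8 in HSC only, 6 in HPC only and 3 through libraries of both together. The 22 members in both fractions held 12 of the higher and 4 of the lower calls, with 6 uncalled. Those that passed in HSC only held 6 higher calls and 2 without a call, those in HPC only 2 lower calls and 4 without a call, and the remaining 3 held 1 lower call. Among 11358 genes at that level in all 8 libraries, 17.2% were called higher and 18.3% lower. In bulk RNA, fewer cells that express a gene and less RNA of it per cell cannot be told apart.

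**Figure D1:**
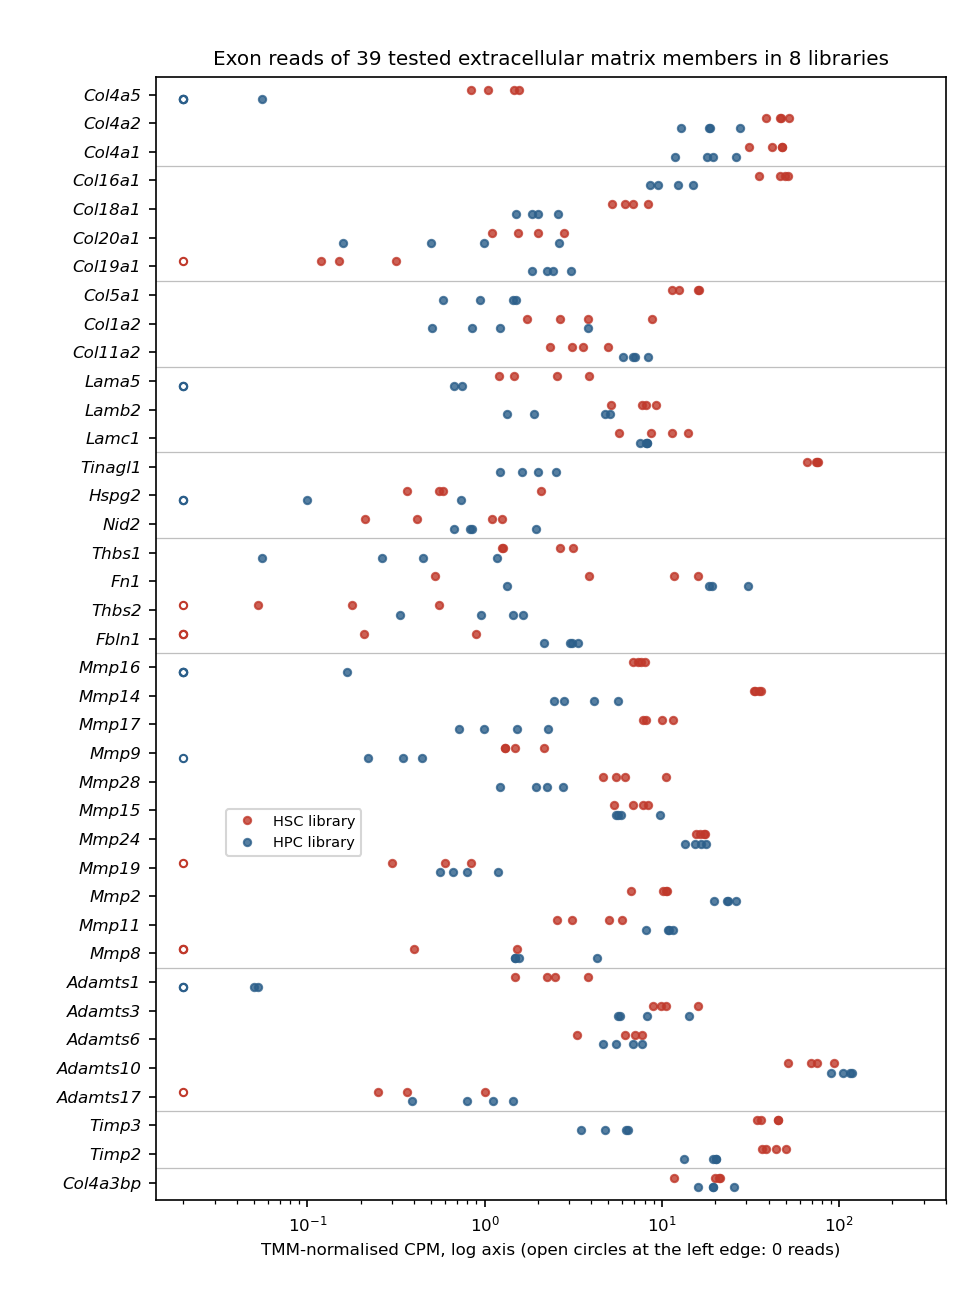
TMM-normalised CPM (log axis) of the 39 tested members in each of 4 HSC libraries (red) and 4 HPC libraries (blue); lines part the protein classes, and open circles at the left edge are libraries with 0 reads. The fractions lie fully apart for Tinagl1, Mmp14, Mmp16 and Timp3, and overlap for Fn1, Lamc1 and Mmp24.

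Col4a1 and Col4a2 encode the chains of the common type IV collagen of basement membranes, and both were higher in HSC. Col4a1 (NCBI gene 12826) had 41.8, 47.9, 47.7 and 31.0 CPM in HSC libraries, against 26.1, 19.4, 17.9 and 11.8 CPM in HPC libraries. Its log2 change was 1.16 ± 0.21 (SE; adjusted p = 0.00055). The fractions did not overlap, although the lowest HSC library and the highest HPC library lay close. Col4a2 (NCBI gene 12827) had 47.2, 46.6, 52.3 and 38.6 CPM in HSC libraries, against 18.7, 18.4, 27.5 and 12.9 CPM in HPC libraries. The log2 change was 1.25 ± 0.19 (adjusted p = 0.00013), close to that of its partner chain, and again no HSC library fell among the HPC libraries.

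The pair lies head to head on chromosome 8, Col4a1 on the minus strand and Col4a2 on the plus strand, with transcript starts in RefSeq that overlap by 22 bases. Their start regions are shown because the genes share this stretch and were both higher in HSC; each runs from 250 bases before to 50 after the start, from RefSeq on GRCm38.p6, and the windows share 78 bases. Capitals mark the GC box (GGGCGG) and the CCAAT box (CCAAT), read on both strands; no TATA box (TATAAA) was found in either.
Col4a1, chr8:11312777-11313076, minus strand: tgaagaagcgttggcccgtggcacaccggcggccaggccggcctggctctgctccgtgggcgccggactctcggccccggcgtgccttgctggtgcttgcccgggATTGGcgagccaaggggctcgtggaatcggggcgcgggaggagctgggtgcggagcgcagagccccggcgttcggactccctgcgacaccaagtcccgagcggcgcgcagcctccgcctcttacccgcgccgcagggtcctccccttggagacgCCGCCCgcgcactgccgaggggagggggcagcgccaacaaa
Col4a2, chr8:11312555-11312854, plus strand: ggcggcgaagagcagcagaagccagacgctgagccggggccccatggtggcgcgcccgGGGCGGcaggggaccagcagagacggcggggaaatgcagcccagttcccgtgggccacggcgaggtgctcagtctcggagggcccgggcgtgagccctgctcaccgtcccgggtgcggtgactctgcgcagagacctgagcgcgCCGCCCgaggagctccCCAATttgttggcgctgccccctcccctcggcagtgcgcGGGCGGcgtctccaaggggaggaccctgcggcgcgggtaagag
The Col4a1 window held 1 GC box and 1 CCAAT box, and the Col4a2 window 3 GC boxes and 1 CCAAT box. G and C made up 74.0% and 73.7% of their bases, beside a median of 52.7% over 32851 start windows of mouse genes.

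Col4a5, a chain of a rarer type IV network, had 0.835, 1.57, 1.46 and 1.05 CPM in HSC libraries, while in HPC 1 read was found in replicate 3 and 0 in the others. With 93 reads in HSC and 1 in HPC, the depth-scaled ratio was 93.4 with a 95% counting interval of 16.4 to 3730 (adjusted p = 0.00011). Its neighbour on the X chromosome, Col4a6, starts 1294 bases away on the other strand and encodes a chain of the same network. Col4a6 had 60 reads in HSC and 1 in HPC but did not pass the filter. The HSC reads were 26, 1, 33 and 0 in replicates 1 to 4. The files list Col4a6 on 2 rows, and 4.92% of its reads were uniquely placed. The remaining type IV chains, Col4a3 and Col4a4, had 9 and 33 reads in HSC, against 14 and 29 in HPC, and were not tested.

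Among collagens outside the networks, Col16a1 and Col18a1 were higher in HSC and Col19a1 was lower. Col16a1, a collagen with an interrupted helix that sits on fibrils and near basement membranes, had 46.4, 49.4, 51.2 and 35.3 CPM in HSC, against 14.9, 8.55, 12.3 and 9.50 CPM in HPC. The log2 change was 2.01 ± 0.19 (adjusted p = 1e-06), and the fractions lay well apart. Of its exon reads 42.0% were uniquely placed, and the opposite-strand gene Gm12963, which overlaps it, was also higher (log2 change 3.51); with uniquely placed reads the change of Col16a1 was 1.87. Col18a1, the basement membrane collagen whose end fragment is endostatin, had 5.25, 6.85, 6.19 and 8.33 CPM in HSC, against 2.59, 1.84, 1.5 and 1.99 CPM in HPC (log2 change 1.74 ± 0.30, adjusted p = 0.00037). No library of one fraction reached the range of the other.

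Col19a1, a rare collagen with an interrupted helix, had 0.119, 0, 0.151 and 0.316 CPM in HSC, against 3.07, 2.24, 1.84 and 2.43 CPM in HPC. It had 11 reads in all in HSC and 180 in HPC, with a log2 change of -3.97 ± 0.67 (adjusted p = 0.00029); without HSC replicate 4 the change was -4.64. Every HSC library lay near or below the limit that 0 reads allow, except replicate 4. Col20a1, another collagen of this kind, averaged 1.87 ± 0.73 CPM in HSC libraries and 1.07 ± 1.09 CPM in HPC and had no call (log2 change 0.81, adjusted p = 0.38).

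The fibrillar collagens split. Col5a1, a chain of the type V collagen that starts and limits collagen fibrils, had 12.5, 16, 11.4 and 16.2 CPM in HSC, against 0.581, 1.44, 1.5 and 0.939 CPM in HPC. The fractions were far apart, with a log2 change of 3.64 ± 0.31 (adjusted p = 3.9e-07). Col11a2, a chain of the type XI collagen known from cartilage, had 2.33, 4.97, 3.57 and 3.11 CPM in HSC, against 8.35, 6.01, 7.08 and 6.91 CPM in HPC. It was lower in every HSC library (log2 change -1.02 ± 0.29, adjusted p = 0.011), but the files list it on 4 rows, with alternate loci among them. Of its reads 0.755% were uniquely placed, and too few of those remained for a test. Reads of the main assembly alone, not limited to uniquely placed ones, gave -1.02 (adjusted p = 0.011).

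Type I collagen, the main collagen of bone, gave few reads. Col1a2, one of its chains, had 3.82, 8.83, 2.67 and 1.74 CPM in HSC, against 1.22, 0.845, 0.502 and 3.81 CPM in HPC, and the fractions overlapped (log2 change 1.42 ± 0.63, adjusted p = 0.092). Leaving out HPC replicate 4, the highest HPC library, gave 2.30 with an adjusted p of 0.0087, and leaving out HSC replicate 2 gave 0.77 with 0.40. Its partner chain Col1a1 had 27 reads in HSC and 25 in HPC. Of the 8 osteoblast markers, Bglap2, Sp7 and Dmp1 had 0 reads in all 8 libraries and Bglap had 2 reads in each fraction, while Ibsp (132 reads in HSC, 24 in HPC; log2 change 2.46, adjusted p = 0.036) and Alpl (90 and 23; log2 change 1.95, adjusted p = 0.050) were called higher in HSC. Their part in the levels of type I collagen was not tested.

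Laminins are trimers of an α, a β and a γ chain, and Lama5, Lamb2 and Lamc1, which combine in 1 such trimer, were the chains that passed the filter. Lama5 had 2.56, 1.46, 3.87 and 1.21 CPM in HSC, against 0, 0.745, 0.669 and 0 CPM in HPC (log2 change 2.66 ± 0.86, adjusted p = 0.026). Lamb2 had 9.24, 7.74, 8.15 and 5.17 CPM in HSC, against 4.76, 1.89, 5.13 and 1.33 CPM in HPC (log2 change 1.21 ± 0.40, adjusted p = 0.027). Both were higher in HSC, but for Lamb2 the lowest HSC library stood just above the highest HPC library. Lamc1, the most widely shared γ chain, had 11.4, 5.75, 14.1 and 8.65 CPM in HSC, against 8.14, 8.2, 8.25 and 7.57 CPM in HPC, and had no call (log2 change 0.31, adjusted p = 0.37).

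The laminin calls were lost when some single libraries were left out. Lama5 was no longer called without HSC replicate 1 (2.60, adjusted p = 0.059), HSC replicate 3 (2.28, adjusted p = 0.086) or HPC replicate 1 (2.24, adjusted p = 0.053), and its change was 3.33 without HPC replicate 2. Lamb2 lost its call without HSC replicates 1, 2 or 3 or HPC replicates 2 or 4, with changes of 1.10, 1.19, 1.18, 1.01 and 0.94 in that order and adjusted p-values from 0.054 to 0.076. Untested chains with at least 10 reads were Lama2 (12 reads in HSC, 1 in HPC), Lama3 (32 and 26), Lama4 (94 and 7), Lamb1 (21 and 3), Lamb3 (6 and 73) and Lamc3 (20 and 1). Lamb3, a chain of the laminin that anchors skin epithelium, was the chain among these with more reads in HPC.

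Tinagl1 had the highest level per length of all members in HSC and the smallest adjusted p among the tested members. It encodes a secreted basement membrane glycoprotein with a cathepsin B-like domain. Tinagl1 (NCBI gene 94242) had 76.0, 66.1, 73.7 and 75.4 CPM in HSC, against 1.22, 1.99, 1.62 and 2.54 CPM in HPC. The HSC libraries lay within a narrow range and averaged 39.6-fold above the HPC libraries (log2 change 5.30 ± 0.19, adjusted p = 1.4e-10). Its exon reads were shared between 2 rows, 1 of them on an alternate locus, so 0 reads were uniquely placed; reads of the main-assembly row alone gave 5.41. Reads across exon-exon junctions made up 63.0% of its exon reads.

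Tinagl1 is a neighbour of Col16a1 on chromosome 4, with 66323 bases between them, and both genes were higher in HSC. Their start windows are shown for that reason, from the same RefSeq table, with the same motifs in capitals; for Tinagl1 it is the window of 1 of 2 annotated starts.
Tinagl1, chr4:130174753-130175052, minus strand: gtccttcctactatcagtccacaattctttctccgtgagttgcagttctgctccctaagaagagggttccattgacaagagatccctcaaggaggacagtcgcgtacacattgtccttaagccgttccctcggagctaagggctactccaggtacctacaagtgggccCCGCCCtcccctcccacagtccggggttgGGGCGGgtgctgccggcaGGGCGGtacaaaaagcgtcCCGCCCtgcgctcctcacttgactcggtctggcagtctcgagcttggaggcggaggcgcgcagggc
Col16a1, chr4:130047590-130047889, plus strand: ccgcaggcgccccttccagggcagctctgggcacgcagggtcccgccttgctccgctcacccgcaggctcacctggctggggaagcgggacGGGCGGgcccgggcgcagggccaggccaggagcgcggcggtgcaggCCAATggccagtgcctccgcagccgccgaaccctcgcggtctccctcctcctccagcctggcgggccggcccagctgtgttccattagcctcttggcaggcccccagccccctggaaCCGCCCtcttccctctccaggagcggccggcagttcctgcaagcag
The Tinagl1 window held 4 GC boxes and no CCAAT box, and the Col16a1 window 2 GC boxes and 1 CCAAT box. G and C made up 60.7% and 74.3% of their bases. The window of the other annotated Tinagl1 start, chr4:130175073-130175372, is not printed. It held 0 GC boxes and 0 CCAAT boxes, with 60% G and C.

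Nidogens and perlecan, the linkers of basement membranes, were near the detection limit. Hspg2, which encodes perlecan, had 2.09, 0.366, 0.553 and 0.580 CPM in HSC, against 0.740, 0.0994, 0 and 0 CPM in HPC, and had no call (log2 change 2.04 ± 1.0, adjusted p = 0.13). Replicate 1 was the highest library of each fraction, and without HPC replicate 1 the change was 4.41 with an adjusted p of 0.011, against 1.22 with 0.44 without HSC replicate 1. Nid2 averaged 0.746 ± 0.510 CPM in HSC libraries and 1.07 ± 0.58 CPM in HPC (log2 change -0.51, adjusted p = 0.56), and its locus overlaps 2700060E02Rik, which had 23080 exon reads. Nid1 had 36 reads in HSC and 0 in HPC and was not tested.

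Of the cell-binding glycoproteins, Thbs1 was higher in HSC and Thbs2 and Fbln1 were lower. Thbs1, a thrombospondin that binds CD36 and CD47 and can activate TGF-β, had 1.25, 2.67, 3.17 and 1.27 CPM in HSC, against 0.264, 0.447, 1.17 and 0.0552 CPM in HPC (log2 change 2.10 ± 0.69, adjusted p = 0.026). Thbs2, its close relative, had 0.179, 0, 0.553 and 0.0527 CPM in HSC, against 0.951, 1.64, 0.334 and 1.44 CPM in HPC (log2 change -2.42 ± 0.85, adjusted p = 0.037). The fractions did not overlap for Thbs1 but did for Thbs2. Fbln1, a fibulin of basement membranes and elastic fibres, had 0.894, 0.209, 0 and 0 CPM in HSC, against 3.38, 3.13, 2.17 and 3.04 CPM in HPC (log2 change -3.44 ± 0.84, adjusted p = 0.0049). Most of its 19 HSC reads came from replicate 1, and without that library the change was -5.28.

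Both thrombospondin calls were likewise lost without some single libraries. Thbs1 was no longer called without HSC replicates 2 or 3 or HPC replicates 1, 2 or 4, with changes of 1.96, 1.83, 1.89, 2.06 and 1.73 in that order and adjusted p-values from 0.057 to 0.085; without HPC replicate 3 it was 2.98. Thbs2 lost its call without HSC replicates 1, 2 or 4 or HPC replicates 1, 2 or 4, with changes of -2.38, -2.02, -2.12, -2.49, -2.16 and -2.27 and adjusted p-values from 0.060 to 0.10. Without HSC replicate 3, its highest HSC library, the change was -3.76. Untested members of this class were Fbln5 (26 reads in HSC, 0 in HPC), Thbs3 (41 and 18) and Sparc (49 and 29).

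Fn1, which encodes fibronectin, the main ligand of integrin α4β1 and α5β1, varied widely within both fractions. It had 3.88, 16, 11.7 and 0.527 CPM in HSC, against 30.7, 1.34, 19.2 and 18.4 CPM in HPC. The ranges overlapped over most of their width, and there was no call (log2 change -1.11, 95% interval -2.74 to 0.52, adjusted p = 0.28). The 8 monocyte and macrophage markers summed to 236, 350, 239 and 232 CPM in HSC, against 465, 255, 378 and 517 CPM in HPC. Their part in the Fn1 levels was not tested.

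The proteases gave 7 of the calls among Mmp genes and 2 among Adamts genes. The membrane-type Mmp proteases sit on the cell surface, and 3 of the 5 that were tested were higher in HSC. Mmp14, the collagenase that activates the secreted Mmp2, had 33.6, 33.0, 35.4 and 36.3 CPM in HSC, against 5.66, 4.12, 2.45 and 2.82 CPM in HPC (log2 change 3.19 ± 0.23, adjusted p = 7.1e-08). The HSC libraries averaged 9.19-fold above the HPC libraries. Mmp17, a member held by a lipid anchor, had 7.87, 9.98, 11.6 and 8.17 CPM in HSC, against 1.53, 0.994, 2.28 and 0.718 CPM in HPC (log2 change 2.77 ± 0.35, adjusted p = 2.2e-05). Neither gene had an HSC library within the HPC range.

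Mmp16, another membrane-type protease, was read almost only in HSC. It had 6.86, 8.00, 7.34 and 7.65 CPM in HSC, while its 3 HPC reads all came from replicate 3 (0.167 CPM). The depth-scaled ratio was 187 with a counting interval of 63.7 to 910 (adjusted p = 5.8e-07). Introns of Mmp16 held 752, 1041, 1077 and 580 reads in HSC libraries, against 32, 52, 26 and 28 in HPC libraries, so intron reads, a separate set of reads from the same libraries, were also higher in HSC (log2 change 4.59, adjusted p = 2e-08). Mmp15 and Mmp24, the remaining membrane-type members tested, had no call: Mmp15 averaged 7.12 ± 1.33 CPM in HSC libraries and 6.74 ± 2.07 CPM in HPC (log2 change 0.08, 95% interval -0.48 to 0.64), and Mmp24 16.7 ± 0.89 CPM in HSC libraries and 15.8 ± 1.83 CPM in HPC (log2 change 0.08, 95% interval -0.25 to 0.40). None of the 2423 reads of Mmp24 crossed an exon-exon junction and 0.206% were uniquely placed, and the locus overlaps BC029722, so these reads cannot be assigned to Mmp24 with certainty.

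The gelatinases Mmp2 and Mmp9, secreted proteases that cut denatured collagen and type IV collagen, went opposite ways. Mmp2 had 10.5, 6.74, 10.7 and 10.1 CPM in HSC, against 23.7, 23.2, 26.1 and 19.6 CPM in HPC, and was lower in HSC (log2 change -1.29 ± 0.18, adjusted p = 5.5e-05). Mmp9 had 1.31, 1.31, 2.16 and 1.48 CPM in HSC, against 0, 0.348, 0.446 and 0.221 CPM in HPC, and was higher in HSC (log2 change 2.60 ± 0.69, adjusted p = 0.0079). The fractions did not overlap for either gene. Mmp9 stayed at a far lower level than Mmp2 in both, at 0.460 CPM per kilobase of exon in HSC against 2.96 for Mmp2, and at 0.0746 against 7.23 in HPC.

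Among the remaining Mmp genes, Mmp28 was higher and Mmp11 lower in HSC. Mmp28, a secreted protease known as epilysin, had 4.65, 10.6, 5.48 and 6.22 CPM in HSC, against 1.22, 2.24, 1.95 and 2.76 CPM in HPC (log2 change 1.72 ± 0.36, adjusted p = 0.0015). Mmp11, known as stromelysin 3, had 5.96, 2.56, 3.12 and 5.06 CPM in HSC, against 8.19, 11, 10.8 and 11.5 CPM in HPC (log2 change -1.31 ± 0.28, adjusted p = 0.0020). Both pairs of groups were separate. Mmp8, the collagenase of neutrophil granules, had 0, 1.52, 0.402 and 0 CPM in HSC, against 4.33, 1.49, 1.56 and 1.49 CPM in HPC, and had no call (log2 change -2.18, adjusted p = 0.079); without HSC replicate 2 the change was -3.93 with an adjusted p of 0.0081.

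The 8 neutrophil markers summed to 9.60, 15.1, 10.1 and 7.33 CPM in HSC, against 26.5, 10.4, 7.36 and 13.2 CPM in HPC, and the library with the highest sum in each fraction was also that with the most Mmp8; their part in its level was not tested. Mmp19 averaged 0.434 ± 0.362 CPM in HSC libraries and 0.801 ± 0.278 CPM in HPC (log2 change -0.89, adjusted p = 0.39), with 19.4% of its reads uniquely placed. The Mmp genes of the cluster on chromosome 9, from Mmp13 to Mmp7, were almost unread apart from Mmp8: Mmp13 had 11 reads in HSC and 0 in HPC, and Mmp27 had 9 and 2. Elsewhere, Mmp21 had 3 reads in HSC and 10 in HPC, Mmp25 3 and 9, and Mmp23 65 and 15. The Mmp23 locus overlaps Mib2, which had 6516 exon reads, only at its edge. Of the Mmp23 reads, 100% were uniquely placed and 70% crossed an exon-exon junction.

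Adamts proteases are secreted and carry thrombospondin repeats that bind matrix. Adamts10, which binds fibrillin microfibrils, was the member with the most reads and was lower in HSC, by a smaller step than the other calls. It had 69.9, 75.3, 93.1 and 51.3 CPM in HSC, against 116, 118, 105 and 90.4 CPM in HPC (log2 change -0.57 ± 0.15, adjusted p = 0.0091). HSC replicate 3 lay above HPC replicate 4, so the fractions overlapped. Adamts1, which cuts versican and aggrecan, had 3.82, 2.25, 2.51 and 1.48 CPM in HSC, while 2 reads were found in HPC, 1 in replicate 1 and 1 in replicate 2. With 185 reads in HSC, the depth-scaled ratio was 92.9 with a counting interval of 25.4 to 773 (adjusted p = 1.6e-05).

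The remaining Adamts genes tested had no call. Adamts3, which cuts procollagens and pro-VEGF-C, had 10.6, 8.94, 16 and 9.91 CPM in HSC, against 5.66, 14.2, 8.25 and 5.80 CPM in HPC (log2 change 0.42, 95% interval -0.21 to 1.06, adjusted p = 0.29). Adamts6 averaged 6.08 ± 1.95 CPM in HSC libraries and 6.19 ± 1.36 CPM in HPC (log2 change -0.02, 95% interval -0.66 to 0.61, adjusted p = 0.96). Its intron reads, 3450 in HSC and 2375 in HPC, gave a log2 change of 0.50 (adjusted p = 0.0070), so exon and intron reads of Adamts6 did not give the same call. Adamts17 averaged 0.405 ± 0.426 CPM in HSC libraries and 0.933 ± 0.447 CPM in HPC (log2 change -1.18, adjusted p = 0.27).

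Untested Adamts genes with at least 10 reads were led by Adamts9, with 43 reads in HSC and 1 in HPC. Adamts12 had 32 reads in HSC and 22 in HPC, Adamts13 27 and 19, Adamts20 20 and 8, Adamts8 17 and 19, Adamts2 16 and 1, Adamts18 15 and 0, Adamts5 14 and 4, Adamts4 8 and 5, and Adamts14 7 and 15. Adamts5 lies 55044 bases from Adamts1 on chromosome 16 and cuts the same kind of proteoglycan.

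Both Timp genes that passed the filter were higher in HSC. Timp2, which inhibits Mmp proteases and also bridges Mmp14 to Mmp2 during activation, had 44.1, 50.1, 38.8 and 36.8 CPM in HSC, against 13.4, 19.5, 20.2 and 20.2 CPM in HPC (log2 change 1.21 ± 0.16, adjusted p = 3e-05). Timp3, which binds matrix and also inhibits Adam17 and several Adamts proteases, had 36.4, 45.4, 45.3 and 34.3 CPM in HSC, against 3.49, 4.77, 6.30 and 6.46 CPM in HPC (log2 change 2.94 ± 0.20, adjusted p = 4.8e-08). Neither gene had overlapping fractions. Timp3 lies inside Syn3 and 9.41% of its reads were uniquely placed; those gave a log2 change of 3.35 (adjusted p = 3.6e-05), while Syn3 itself had no call (log2 change 0.25). Timp1 had 1 read in each fraction and Timp4 had 0 in HSC and 2 in HPC.

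Levels of different genes were set side by side as CPM per kilobase of exon. In HSC the order was led by Tinagl1 (33.5), Adamts10 (14.4), Timp2 (11.7), Mmp14 (9.10), Timp3 (8.62), Col16a1 (7.84), Col4a2 (7.16) and Col4a1 (5.64). In HPC Adamts10 (21.3) led, followed by Mmp2 (7.23), Timp2 (5.06), Mmp11 (4.42), Mmp24 (3.67) and Col4a3bp (3.57). The place of Mmp24 is uncertain, since its reads cannot be assigned to it with certainty, as given above. Above 1 CPM per kilobase stood 19 members in HSC and 14 in HPC. In the HSC order, Adamts10 and Timp2, and each pair of neighbours from Mmp14 to Col4a1, differed by less than the sum of their SDs over libraries, while Tinagl1 stood above the rest by more than that.

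**Figure D2:**
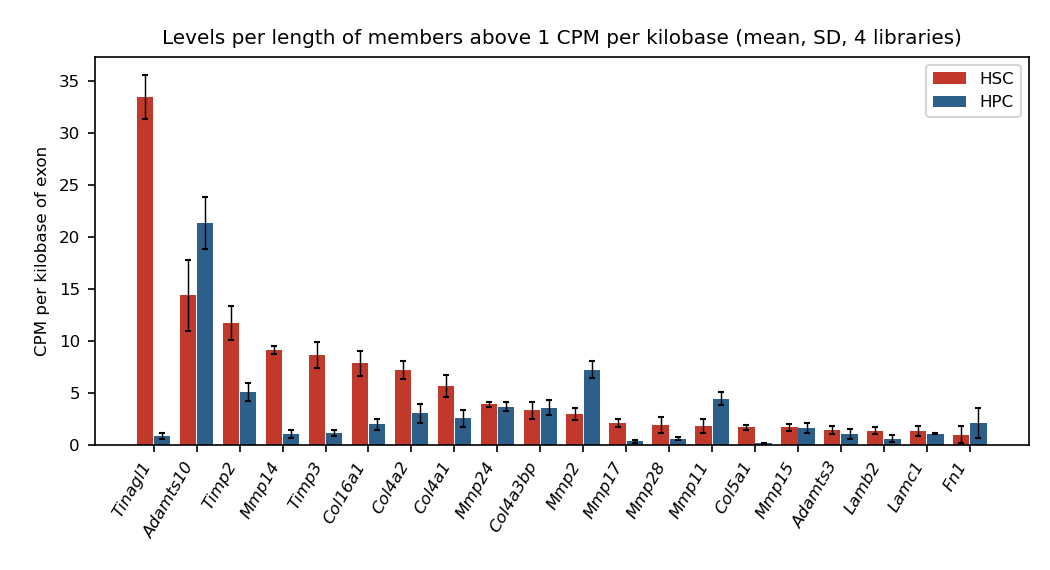
Mean CPM per kilobase of exon in HSC (red) and HPC (blue) for members above 1 in either fraction; bars start at 0 and error bars are SD over 4 libraries. Tinagl1 stood at 33.5 in HSC and 0.846 in HPC, and Adamts10 at 14.4 in HSC and 21.3 in HPC.

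**Figure D3:**
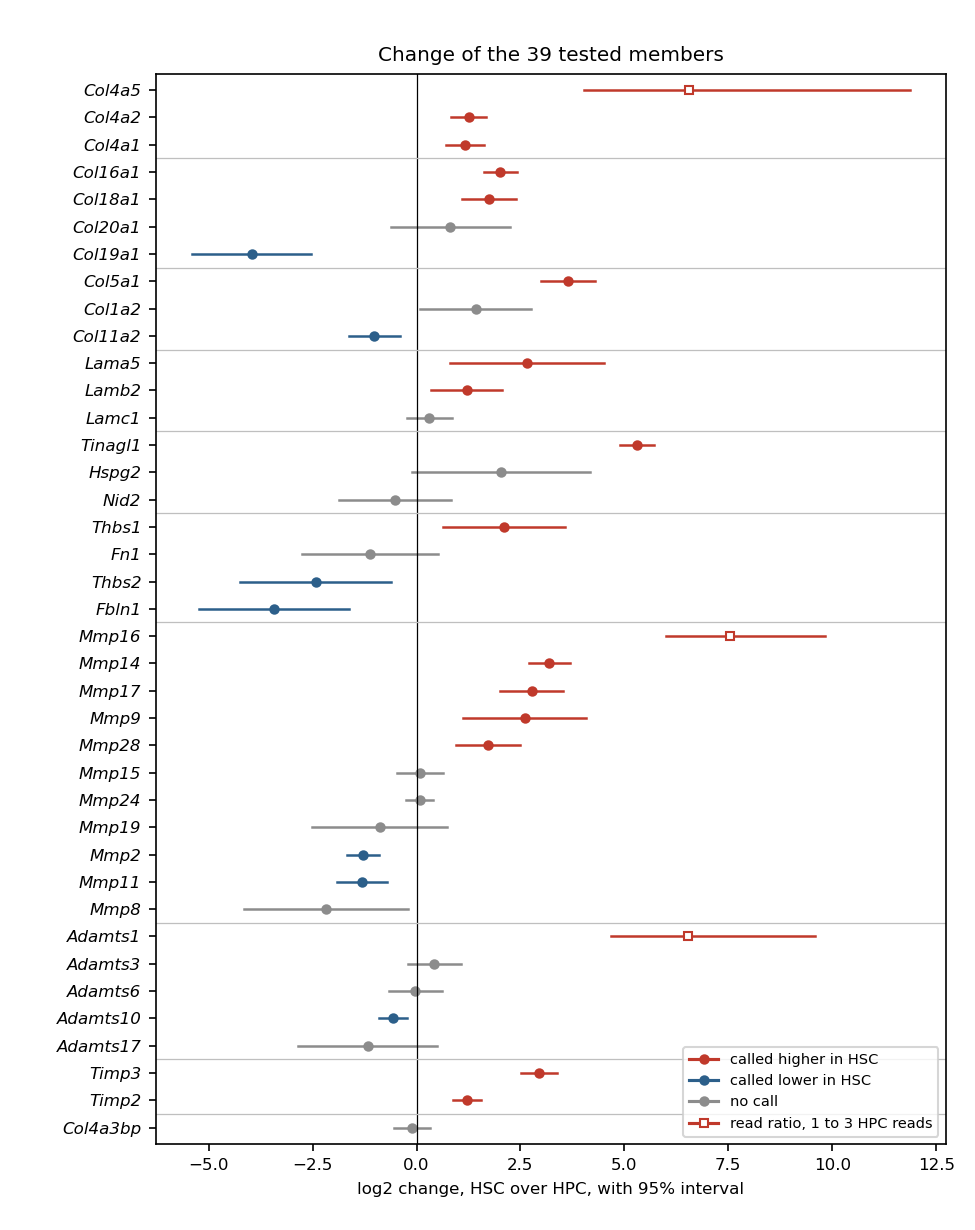
Log2 change, HSC over HPC, with its 95% interval for the 39 tested members, by protein class; red was called higher, blue lower and grey not called. Open squares give the read ratio with its counting interval for Mmp16, Adamts1 and Col4a5, which had 1 to 3 reads in HPC.

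The classes were also summed over all their members, tested or not. Network collagens summed to 91.3 ± 14 CPM in HSC libraries and 38.8 ± 9.80 CPM in HPC, and other interrupted, beaded and anchoring collagens to 56.6 ± 5.85 CPM in HSC libraries and 18.3 ± 3.75 CPM in HPC (SD, n = 4 each). Timp genes summed to 82.8 ± 10.1 CPM in HSC libraries and 23.6 ± 4.54 CPM in HPC, and Mmp genes to 99.4 ± 3.06 CPM in HSC libraries and 67.1 ± 4.26 CPM in HPC. The Mmp sums include reads counted for Mmp24 (16.7 CPM in HSC libraries and 15.8 CPM in HPC), which cannot be assigned with certainty. Adamts genes summed to 95.5 ± 21.5 CPM in HSC libraries and 124.0 ± 15.1 CPM in HPC, most of it Adamts10, and fibronectin, fibulins, thrombospondins and Sparc to 12.1 ± 8.22 CPM in HSC libraries and 22.5 ± 12.2 CPM in HPC, most of it Fn1. Nidogens, perlecan and Tinagl1 summed to 74.9 ± 4.86 CPM in HSC libraries and 3.12 ± 0.75 CPM in HPC. Fibrillar collagens summed to 23.25 ± 6.32 CPM in HSC libraries and 10.3 ± 1.8 CPM in HPC. Laminin chains summed to 22.3 ± 5.92 CPM in HSC libraries and 13.1 ± 1.71 CPM in HPC. Transmembrane collagens summed to 0.841 ± 0.419 CPM in HSC libraries and 0.476 ± 0.57 CPM in HPC. These sums are descriptions and were not tested.

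Of the 77 members that were not tested, 19 had 0 reads in all 8 libraries, 15 had 1 to 9 reads and 43 had at least 10. Among these 43, 33 had more reads in HSC. Beside those named above, collagens read in HSC but hardly in HPC were Col15a1 (29 reads in HSC, 1 in HPC), Col6a2 (28 and 0), Col6a1 (26 and 0), Col8a1 (23 and 0), Col2a1 (20 and 0), Col3a1 (19 and 0) and Col5a3 (14 and 2). Several sums came from few HSC libraries: replicates 1 to 4 held 0, 15, 0 and 11 reads of Col6a1 and 0, 16, 0 and 3 of Col3a1. Col2a1 was read in all of them (1, 10, 4 and 5). Among members named above, Lama2 had 0, 0, 12 and 0, Lamb1 1, 0, 1 and 19, Adamts2 0, 15, 1 and 0, and Mmp13 0, 11, 0 and 0. Col7a1 had 40 reads in HSC and 12 in HPC, Col17a1 38 and 12, Col27a1 19 and 10, and Col23a1 21 and 21. More reads fell in HPC for Col9a3 (12 in HSC, 49 in HPC), Col14a1 (14 and 41) and Col28a1 (5 and 13). With no filter, edgeR called 10 of these 43 higher in HSC, among them Adamts9, Col4a6, Lama4 and Nid1, and Lamb3 lower. The shares over all genes were not computed for that fit or for untested genes. The counts of untested members therefore have no background beside them and only describe these members.

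Intron reads of the same libraries were not part of the exon counts and were fitted apart. Reads across exon-exon junctions made up a median of 51.4% of exon reads over the tested members and 41.3% over all genes tested. In the fit on intron reads, 10.8% of 15142 genes were called higher in HSC and 9.43% lower. Of the 18 higher members, 10 were called higher by intron reads too, among them Tinagl1 (log2 change 4.42), Mmp14 (5.47), Col5a1 (3.74), Mmp28 (2.57), Timp3 (2.20), Col4a1 (1.92) and Col4a2 (1.88). Of the 7 lower members, Col19a1 (-1.95) and Adamts10 (-0.55) were called lower by intron reads. Mmp2 was not called (-0.78, adjusted p = 0.37). Of the higher members, Col18a1 was not called (0.05, adjusted p = 0.95), with 123 intron reads in HSC and 118 in HPC. Mmp17 (2.25), Timp2 (0.59), Lama5 (0.79) and Lamb2 (-0.35) had no call either (adjusted p = 0.063, 0.31, 0.49 and 0.80). Adamts1, Mmp9, Thbs1, Mmp11, Col11a2, Fbln1 and Thbs2 did not pass the count filter of the intron fit.

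**Figure D4:**
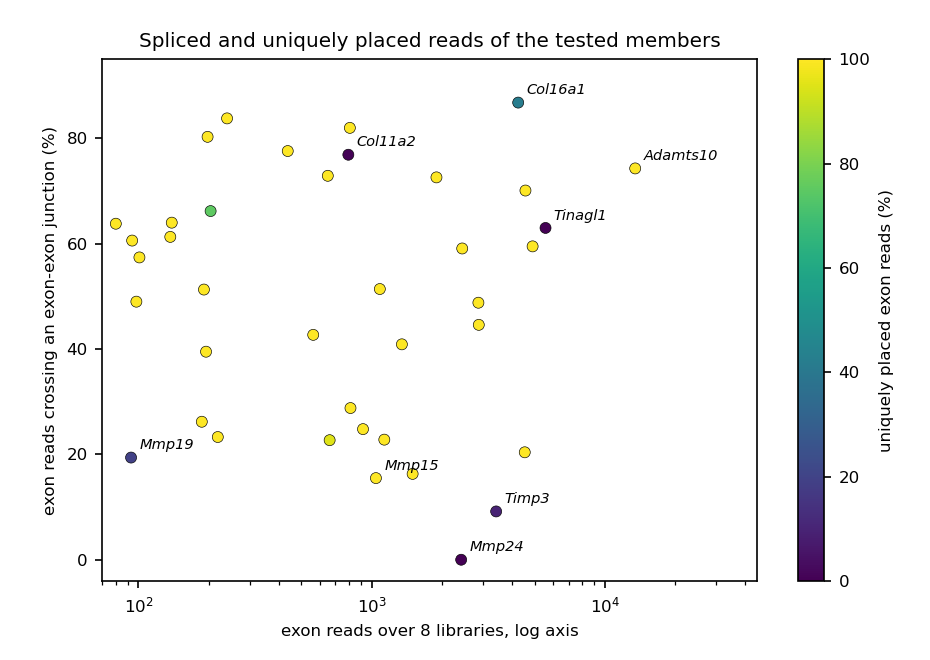
Exon reads over 8 libraries (log axis) against the percent of them that cross an exon-exon junction, for the 39 tested members; colour gives the percent of uniquely placed reads. Mmp24 lies at 0 on the junction axis, and Tinagl1, Col11a2, Mmp24, Timp3, Mmp19 and Col16a1 had under 50% uniquely placed reads.

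Genes that work with the matrix were described from 5 lists with 177 genes, of which 107 were tested, 39 were higher in HSC, 24 were lower and 44 had no call, beside 19.6% called higher and 17.6% lower over all genes tested. Of 24 tested genes for collagen folding, processing and crosslinking, 10 were higher and 3 lower, with a median log2 change of 0.62. Tgm2, a crosslinking transglutaminase, averaged 154.1 ± 7.86 CPM in HSC libraries and 8.83 ± 3.04 CPM in HPC (log2 change 4.12, adjusted p = 2.2e-09). P3h3 and P3h4, of the prolyl 3-hydroxylase family, were also higher (log2 changes 1.75 and 2.55). P4hb and P4ha1, subunits of prolyl 4-hydroxylase, and Mia3, which helps export large collagens, were lower (-0.47, -0.54 and -0.50); P4ha1 lost its call without HSC replicate 2 (-0.50, adjusted p = 0.051) or HPC replicate 3 (-0.41, adjusted p = 0.059).

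Of 15 tested integrin genes, 4 were higher and 3 lower, shares close to the 19.6% and 17.6% over all genes tested, with a median log2 change of -0.03. Itga5, the fibronectin receptor chain, averaged 82.2 ± 9.09 CPM in HSC libraries and 41.1 ± 4.28 CPM in HPC (log2 change 1.0, adjusted p = 1.1e-05), and Itga6, a laminin receptor chain, 87.5 ± 11.7 CPM in HSC libraries and 48.9 ± 3.04 CPM in HPC (log2 change 0.84, adjusted p = 4e-05). Itgb3 was higher (1.11) and Itgb5 lower (-2.13). Itga2b was lower by a small step (-0.29, adjusted p = 0.049), and its call was lost without HSC replicates 1 or 2 or HPC replicates 1, 2 or 3, with changes of -0.24, -0.25, -0.29, -0.27 and -0.29.

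Of 17 other matrix receptors tested, 6 were higher and 7 lower, beside 19.6% and 17.6% over all genes tested. Their median log2 change was 0.14. The syndecan Sdc2, a heparan sulfate carrier, averaged 30.6 ± 2.72 CPM in HSC libraries and 3.33 ± 1.39 CPM in HPC (log2 change 3.19, adjusted p = 5.2e-07), whereas Sdc1 averaged 6.47 ± 0.94 CPM in HSC libraries and 31.2 ± 4.82 CPM in HPC (log2 change -2.27, adjusted p = 1.3e-07). Sdc4 and the laminin receptor Bcam were higher (0.72 and 1.55), and the hyaluronan receptors Cd44 and Hmmr were lower (-0.86 and -1.07).

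Other matrix proteases and inhibitors gave 5 higher and 7 lower of 21 tested, with a median of 0.06. Over all genes tested the shares were 19.6% higher and 17.6% lower. Ctsl, Furin and Adamtsl5 were higher (log2 changes 1.59, 0.68 and 2.90), and Hpse, Ctss and Elane were lower (-1.88, -1.28 and -2.43). Adamtsl5 is an Adamts-like gene that the list includes, and it does not encode a protease. Furin cuts the prodomain of membrane-type Mmp proteases, and Hpse encodes heparanase. Of 30 other glycoproteins and proteoglycans tested, 14 were higher and 4 lower, with a median of 0.62. Mmrn1, a platelet glycoprotein, averaged 489.1 ± 110.6 CPM in HSC libraries and 66.6 ± 13.6 CPM in HPC (log2 change 2.88); Vwf and the proteoglycan Bgn were also higher (3.8 and 2.27), and Igfbp4 and Egfl7 were lower (-1.69 and -1.19).

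Markers of other cells that make matrix differed between the fractions. The 10 marrow stromal markers summed to 62.5 to 77.2 CPM in HSC libraries and 16.3 to 28.1 CPM in HPC. Most of it came from Bgn and Cxcl12, which were called higher in HSC (log2 changes 2.27 and 1.99). Vcam1 had no call (570 reads in HSC, 518 in HPC). Few reads were found for Pdgfra (1 in HSC, 2 in HPC), Dcn (4 and 0), Lum (11 and 0) and Lepr (31 and 10). The same held for Kitl (38 and 14), Adipoq (22 and 5) and Foxc1 (24 and 3). No stromal marker was at 0 in all libraries. The 10 endothelial markers summed to 323 to 452 CPM in HSC libraries and 215 to 226 CPM in HPC, mostly Tie1, Tek, Vwf and Pecam1. Cdh5 had 70 reads in HSC and 47 in HPC, and no endothelial marker was at 0 in all libraries. Among the 9 tested, 6 were higher in HSC, 2 had no call and Pecam1 was lower, beside 19.6% higher and 17.6% lower over all genes. Pecam1 averaged 46.8 ± 7.76 CPM in HSC libraries and 118.9 ± 7.15 CPM in HPC (log2 change -1.34, adjusted p = 7.4e-07). Of the megakaryocyte and platelet markers, Gp1ba, Gp5, Gp9, Ppbp and Treml1 were higher in HSC (log2 changes 1.01, 0.80, 1.39, 1.26 and 1.13), Itga2b was lower, as given above, and Pf4 and Gp1bb had no call (-0.18 and 0.75). The 8 osteoblast markers summed to 63.8 to 78.4 CPM in HSC libraries and 112 to 162 CPM in HPC, nearly all Runx2 (log2 change -1.06, adjusted p = 4.2e-06), while Alpl and Ibsp went the other way and Spp1 had no call. The part of these cell types in the matrix differences was not tested.

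Lists for other blood cells were read as well, where 19.6% of all genes tested were called higher in HSC and 17.6% lower. The 8 red cell markers summed to 1599 to 2123 CPM in HSC libraries and 99.4 to 238 CPM in HPC, and the 6 mast cell and basophil markers to 5.80 to 38.3 CPM in HSC libraries and 79.1 to 199 CPM in HPC. The 6 B cell markers summed to 61.9 to 79.9 CPM in HSC libraries and 57.4 to 63.9 CPM in HPC, and the 6 T and NK cell markers to 82.2 to 109 CPM in HSC libraries and 283 to 377 CPM in HPC. That HPC sum was mostly Nkg7 (44.6 ± 8.40 CPM in HSC libraries and 330.4 ± 40.8 CPM in HPC libraries), and 4 of the 6, Cd3d, Cd3e, Cd3g and Klrb1c, were higher in HSC (log2 changes 1.77, 1.81, 2.25 and 2.41). The 10 genes of early stem and progenitor cells, the sorted type, summed to 2072 to 2606 CPM in HSC libraries and 3388 to 3554 CPM in HPC, with Cd34, Flt3 and Cd48 lower in HSC (log2 changes -3.41, -5.15 and -3.65), 6 of the 10 higher in HSC and Kit uncalled.

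Start windows were at hand for 84 members, 94 windows in all. Of the 16 windows of 14 higher members, 13 held a GC box and 7 a CCAAT box, beside 35.7% and 37.4% of all 32851 windows. Of the 6 windows of 5 lower members, 3 held a GC box and 1 a CCAAT box. The GATA motif (AGATAA or TGATAA) was in 0 of the 16 and 1 of the 6, beside 18.6% of all windows; the ETS motif (CCGGAAG) and the AP-1 motif (TGACTCA or TGAGTCA) were in none of either, beside 8.86% and 5.20%; and the TATA box was in 1 and 2, beside 13.6%. G and C made up a median of 64.2% in windows of higher members and 57.7% in those of lower members. Both strands were read and some letters of the motifs can overlap, so a match describes the sequence only.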

How the data were processed

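Bulk RNA-seq counts of 4 HSC and 4 HPC libraries, grouped by their titles, were analysed. ISOGEN was used for the RNA, the SMARTer Pico kit with 18 cycles of PCR for the cDNA and Nextera XT for the libraries, per the labels' protocols. Genome build mm10 is named in the submitters' processing notes; which aligner and counter were used, and whether with strand, is not given in the sources used here, so reads of overlapping and antisense genes cannot be told apart. Per the file headers, the deposited counts give reads per gene in exons, in introns, across junctions and in all, as totals and as uniquely placed reads. The deposited RPKM and TPM columns, made by the authors per the file headers, were not tested.

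Total exon reads were summed over the rows of each gene ID. edgeR 4.0.16 in R 4.3.3 was used with filterByExpr, TMM scaling and the quasi-likelihood F test, with Benjamini-Hochberg adjustment over 12751 genes; it was tested on simulated data. Changes are HSC over HPC, and SE is the absolute change over the root of F. For genes with 1 to 3 reads in HPC the ratio of reads is given with an exact 95% counting interval. Start windows came from RefSeq without those of chromosome 18. The summed level of the megakaryocyte and platelet markers is not reported here. Members and gene lists were chosen with earlier results of these data known. All tested members were named, untested ones with at least 10 reads, and up to 3 called genes per list and direction with the smallest adjusted p and a mean of at least 5 CPM. Depth was 16291733 to 20564901 exon reads. No 2 libraries of a fraction looked like 1 deposited again (mean chi-square per gene 11.6 to 38.7).

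The alternatives were scaling by RLE or upper quartile, a filter of 50 reads in 4 libraries or none, a block for the replicate number, DESeq2 1.42.0, voom with quality weights (limma 3.58.1), unique exon reads, gene reads, main-assembly rows only, a threshold of 0.01, a tested fold of 1.5, and leaving out each library or both libraries numbered 4. Intron reads, and leaving out both libraries numbered 4 for single genes and the lists, were added after seeing the data.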

Additional observations from a re-analysis of the deposited data

Results flagged for a closer look

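A single library stood far from the other 3 of its fraction in 14 of 134 groups (67 genes in 2 fractions), where chance gives about 1 in 20 for normally distributed values. That rate does not hold for groups with few reads, so the 2 numbers cannot be compared directly. Col4a5 and Mmp16 in HPC were flagged only because all their few reads fell in replicate 3. Among members, HSC replicate 4 was low for Col4a3bp, at 11.7 CPM against 19.9 to 21.4 CPM in the other HSC libraries, and HSC replicate 2 was low for Mmp2, at 6.74 CPM against 10.1 to 10.7 CPM. HSC replicate 1 was high for Hspg2, at 2.09 CPM against 0.366 to 0.580 CPM. HPC replicate 1 was high for Hspg2 (0.740 CPM against 0 to 0.0994 CPM in the other HPC libraries), Mmp8 (4.33 CPM against 1.49 to 1.56 CPM) and Mmp15 (9.83 CPM against 5.52 to 5.91 CPM), and low for Timp2 (13.4 CPM against 19.5 to 20.2 CPM). HPC replicate 2 was high for Nid2, at 1.94 CPM against 0.669 to 0.846 CPM. HPC replicate 3 held all HPC reads of Col4a5 (0.0557 CPM) and of Mmp16 (0.167 CPM), with 0 in the other HPC libraries. HPC replicate 4 was low for Lamc1, at 7.57 CPM against 8.14 to 8.25 CPM.

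Among the related genes, replicate 4 of each fraction was low for Mia3, at 33.0 CPM against 37.8 to 38.5 CPM in the other HSC libraries and at 46.3 CPM against 53.6 to 54.0 CPM in the other HPC libraries. HSC replicate 4 was high for P4hb, at 439 CPM against 399 to 402 CPM in the other HSC libraries.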

How the results depend on the processing

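The 18 higher members became 28 with no count filter, where the share over all genes was not computed, and 11 with intron reads. The 7 lower members became 4 with a filter of 50 reads, 4 with a tested fold of 1.5 and 3 with intron reads, and the 24 lower related genes became 13 with a tested fold of 1.5. Fewer genes or reads entered the stricter filter and the intron fit. Leaving out each library in turn gave 15 to 20 higher and 6 to 7 lower members, and 35 to 41 higher and 20 to 24 lower related genes. Without both libraries numbered 4, 21 members were higher and 6 lower. A replicate block gave 19 higher members, Hspg2 being added, and 6 lower, Thbs2 being lost; the numbers do not pair the libraries by any label, and the deviations of same-numbered libraries correlated at 0.02, -0.18, 0.23 and 0.36. Unique exon reads gave no value for Tinagl1, Col11a2, Mmp24 and Mmp19.

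Some uncalled genes changed sign. Adamts6 was at 0.052 with upper quartile scaling, 0.43 with gene reads (adjusted p = 0.017), 0.50 with intron reads, 0.080 with voom and 0.13 without both libraries numbered 4, and between -0.16 and 0.17 when each library was left out. Mmp15 was at -0.053 without both libraries numbered 4 and between -0.010 and 0.31 when each was left out, and Col4a3bp between -0.22 and 0.048. With intron reads Nid2 was at 0.32, and 2 called genes changed sign without a call, Lamb2 at -0.35 and Itga2b at 0.023. The causes were not tested. Depth limits members under about 0.527 CPM, most of which were left out of the test.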
